A study of Mus musculus with 4 samples.

Results

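The expression of 10 genes that read out the mechanical state of a cell was followed in mouse neural stem and progenitor cells turned towards neurons: Ccn1, Ccn2, Thbs1, Myl9, Tagln, Acta2, Ankrd1, Amotl2, F3 and Srf. They are textbook targets of the coactivator YAP or of serum response factor, SRF, and several encode matricellular proteins, which are secreted into the matrix and signal from there. The 10 were chosen by name, out of 19937 genes on the array, with earlier results of the same comparison known. The falls of Ccn1, Ccn2 and Thbs1 were among those results, so their values describe genes picked partly for them and are no independent evidence about the group. Each gene had 1 probe set that named it alone, so the rule of taking the brightest probe set left nothing to choose.

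The cells were primary neurospheres grown from the stem cell zone beside the brain ventricles of C57BL/6 mice aged 9 to 12 weeks. All received non-targeting siRNAs and then a virus for the neurogenic transcription factor Pax6, and were plated on laminin without growth factors for the last 10 h. From the time of the virus onwards, 2 samples were grown with 0.01% DMSO alone and 2 samples with 100 nM olaparib in that amount of DMSO. Olaparib inhibits PARP1 and PARP2, which sense DNA breaks. The study asked how gene expression differs when PARP is inhibited during this differentiation. All 4 samples carry the control siRNAs and the virus, so no untransduced cells were compared, and viral Pax6 was not told apart from the cells' own. The labels call the samples of a group biological replicates without naming animals, so p-values speak only of these samples. The limma fit behind them drew most of its spread from other genes of similar level, through a prior worth 18.1 degrees of freedom.

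As background, YAP and its relative TAZ shuttle into the nucleus when the Hippo kinases are inactive and the cell is spread and under tension, and there they bind DNA through TEAD factors. SRF binds the CArG box and is driven by the MRTF coactivators, which are released when actin polymerises, or by ternary complex factors downstream of growth factor signalling. Both routes meet at genes of adhesion, contraction and the matrix, and adult neural stem cells contact a laminin-rich matrix in their niche.

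Promoter sequences from RefSeq (GRCm38.p6) were matched for 7 of the 10 genes, in a window from 250 bases before to 50 bases after a transcription start. The sequences used held no window for Ccn2, Thbs1 and Tagln, so those genes were not searched. The sequences are shown for the motifs they hold, which do not assign a gene to a factor. Acta2, a standard MRTF target, held the TEAD motif and no exact match to the CArG box in its window. The search allowed no other base in that box, so a box that departs from the form given here was not counted. The changes of all genes with each motif are given below. Capitals mark the CArG box (a run of 6 bases that are each A or T between a pair of C and a pair of G), the TEAD motif GGAATG, read as CATTCC on the other strand, or the AP-1 motif TGANTCA, each searched on both strands, and no matches overlapped. All sequences read 5′ to 3′ on the strand of the gene.
Ccn1, chr3:145650043-145650128, minus strand: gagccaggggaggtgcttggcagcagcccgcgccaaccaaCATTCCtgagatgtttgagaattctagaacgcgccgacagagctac
Ankrd1, chr19:36119922-36120094, minus strand: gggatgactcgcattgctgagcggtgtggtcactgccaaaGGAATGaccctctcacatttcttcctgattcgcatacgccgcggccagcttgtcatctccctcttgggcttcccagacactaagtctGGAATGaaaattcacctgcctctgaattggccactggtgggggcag
Amotl2, chr9:102717727-102717756, plus strand: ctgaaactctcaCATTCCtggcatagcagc
Acta2, chr19:34255502-34255531, minus strand: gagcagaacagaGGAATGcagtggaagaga
Myl9, chr2:156775263-156775352, plus strand: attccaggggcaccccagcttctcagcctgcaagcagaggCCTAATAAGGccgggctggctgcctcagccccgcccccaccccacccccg
Srf, chr17:46556215-46556244, minus strand: CCATATAAGGagcggcctcgCCATAAAAGG
F3, chr3:121723351-121723448, plus strand: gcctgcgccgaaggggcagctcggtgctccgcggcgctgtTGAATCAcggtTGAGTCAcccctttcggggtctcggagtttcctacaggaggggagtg

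The TEAD motif of Ccn1 began 103 bases before the start, and those of Ankrd1 began 210 and 123 bases before it. Srf, the gene of the factor itself, held CArG boxes that began 82 and 62 bases before the start, and the single CArG box of Myl9 began 161 bases before. For Amotl2, Acta2 and Srf the start used lies inside the RefSeq gene entry, 713, 212 and 2105 bases from its 5′ end, so only 30 bases are shown. For Myl9 it lies 56 bases inside that entry, and the stretch shown ends 112 bases before the start used. Of all 32851 promoter windows, 1.63% held a CArG box, 14.7% the TEAD motif and 7.81% the AP-1 motif. A match is a description of the letters and not a measured binding site.

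Each sample was run on 1 Affymetrix gene array, and the deposited values are on a log2 scale. Array medians lay between 6.60 and 6.68, and Pearson's r across the 13956 genes tested was 0.996 for the DMSO pair, 0.993 for the olaparib pair and 0.986 to 0.988 between groups, across genes that are not independent replicates. With 2 arrays per group the number of arrays limits the precision. The 20 genes read from tissues unrelated to brain had mean log2 values from 6.07 to 7.77 with a median of 6.42, and a member in that range may hold little beyond background. Each change is the olaparib mean minus the DMSO mean, and adjusted p-values come from a limma fit over all 13956 genes.

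**Figure D1:**
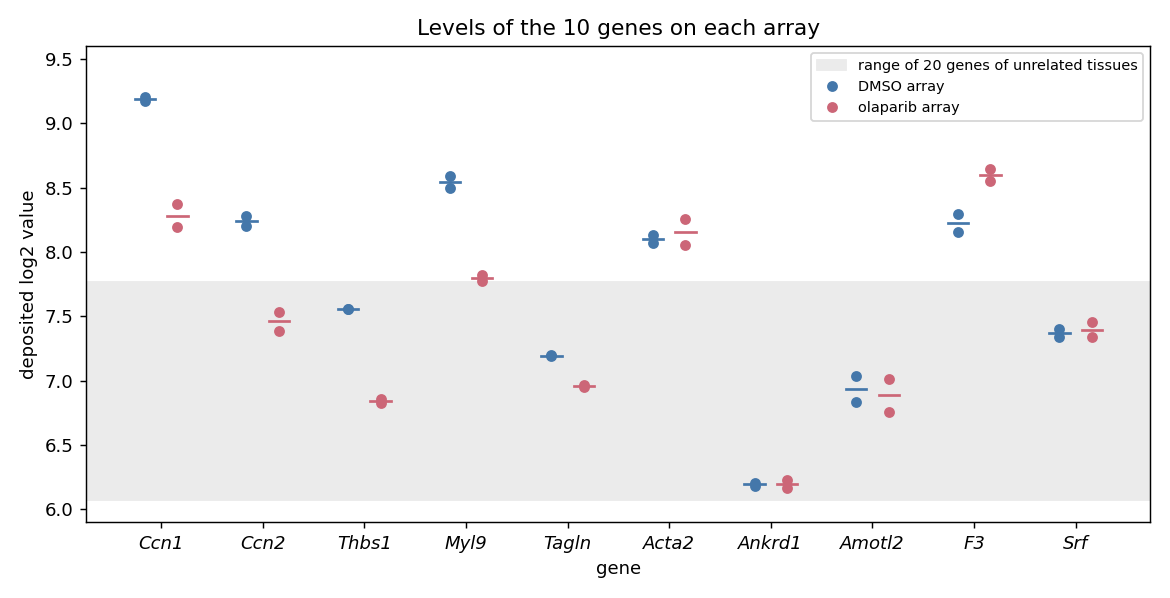
Deposited log2 value (vertical axis) of each of the 10 genes on the 2 DMSO arrays and the 2 olaparib arrays, with a bar at each group mean and the range of 20 genes of unrelated tissues in grey. The olaparib points lie below both DMSO points for Ccn1, Ccn2, Thbs1, Myl9 and Tagln and above them for F3, and the groups overlap for Acta2, Ankrd1, Amotl2 and Srf.

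The 3 genes for secreted matrix signals fell. Ccn1 encodes CYR61, an integrin-binding matricellular protein and one of the most direct YAP targets. It stood at 9.21 and 9.17 on the DMSO arrays and at 8.19 and 8.37 on the olaparib arrays. Both olaparib arrays lay below both DMSO arrays, and the gap was several times the spread within either group. The mean went from 9.19 ± 0.03 to 8.28 ± 0.13 (SD, n = 2 each), a change of -0.91 on the log2 scale (SE 0.10, 95% interval -1.13 to -0.69, adjusted p = 2.32e-05) or 1.87-fold. Ranked from the largest fall, Ccn1 was number 11 of the 13956 genes.

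Ccn2 encodes connective tissue growth factor, the CCN family member most used as a YAP reporter. Its log2 values were 8.28 and 8.20 with DMSO and 7.54 and 7.39 with olaparib. The groups did not overlap, and the change was -0.78 (SE 0.09, 95% interval -0.97 to -0.59, adjusted p = 2.32e-05) or 1.72-fold, at rank 20 from the largest fall. The olaparib arrays lie within the range of the unrelated genes, so the size of this fall is less certain.

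Thbs1 encodes thrombospondin 1, a matricellular glycoprotein that activates latent TGF-beta and, when released by astrocytes, promotes synapse formation. It read 7.56 on both DMSO arrays and 6.86 and 6.83 on the olaparib arrays. The replicates of each group were nearly equal and the groups were far apart, with a change of -0.71 (SE 0.08, 95% interval -0.88 to -0.55, adjusted p = 1.17e-05) or 1.64-fold. All 4 of its values lie within the range of the unrelated genes. In bulk samples such as these, fewer cells that express a gene and less RNA per cell cannot be told apart.

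The genes of the actin-SRF axis did not move together. Myl9, the regulatory light chain of smooth muscle and non-muscle myosin, read 8.50 and 8.59 with DMSO and 7.77 and 7.82 with olaparib. The olaparib arrays lay below both DMSO arrays, and Myl9 fell by 0.75 on the log2 scale (SE 0.09, 95% interval -0.94 to -0.55, adjusted p = 5.01e-05), a 1.68-fold change at rank 26 from the largest fall. Tagln, the actin-bundling protein transgelin, read 7.19 and 7.20 with DMSO and 6.95 and 6.97 with olaparib. Its groups did not overlap, but its change of -0.23 (SE 0.08, 95% interval -0.39 to -0.074) did not pass the threshold (adjusted p = 0.0777), and its adjusted p lay between 0.0593 and 0.485 over 15 alternative settings.

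Acta2, the smooth muscle alpha-actin that is a standard MRTF target, read 8.07 and 8.14 with DMSO and 8.05 and 8.26 with olaparib. The olaparib arrays bracketed the DMSO arrays, and the change was 0.051 (SE 0.10, 95% interval -0.15 to 0.25, adjusted p = 0.868). Srf read 7.34 and 7.40 with DMSO and 7.34 and 7.46 with olaparib, with a change of 0.025 (SE 0.08, 95% interval -0.15 to 0.19, adjusted p = 0.933). All values of Tagln and Srf lie within the range of the unrelated genes. A fall of the size seen for Myl9 lies outside the intervals of both genes. Myl9 and Srf, which share the CArG box in the windows printed above, thus differed in their calls, although the difference between them was not tested.

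Among the other YAP targets, Ankrd1 was too dim to be tested, Amotl2 gave no call and F3 rose. Ankrd1, a muscle ankyrin repeat protein widely used as a YAP reporter, read 6.21 and 6.18 with DMSO and 6.23 and 6.16 with olaparib. It lay below the median of the unrelated genes on every array and under the filter on dim genes at 6.42, so it was not tested. Fitted without the filter its change was 0.0026 (SE 0.05, adjusted p = 0.997), which says nothing about a gene at background. Amotl2, a junctional scaffold that restrains YAP and here also within that range, read 7.04 and 6.83 with DMSO and 7.01 and 6.76 with olaparib. The groups overlapped and the spread within each was larger than the change of -0.050 (SE 0.09, 95% interval -0.24 to 0.14, adjusted p = 0.861).

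F3 encodes tissue factor, the membrane receptor that starts blood clotting and is abundant in astrocytes. It read 8.15 and 8.29 with DMSO and 8.55 and 8.64 with olaparib. Both olaparib arrays lay above both DMSO arrays, and F3 rose by 0.37 on the log2 scale (SE 0.10, 95% interval 0.16 to 0.58, adjusted p = 0.0280), a 1.29-fold change at rank 278 from the largest rise. This call was lost in 5 of 15 alternatives, namely without the filter (adjusted p = 0.0511), under median centring, with all probe sets in the fit, and without either DMSO array, with adjusted p up to 0.607. F3 alone of the 7 promoters printed held AP-1 motifs, which began 146 and 135 bases before its start.

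**Figure D2:**
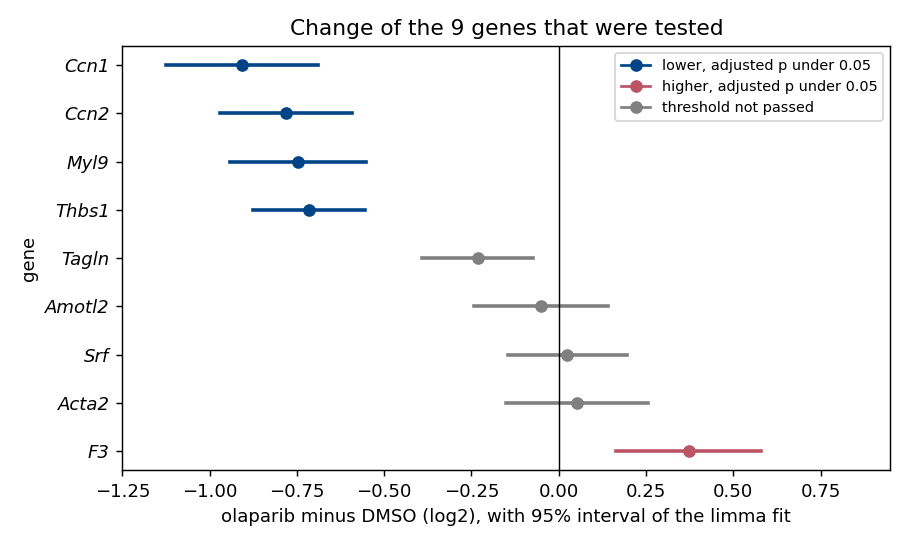
Change of each tested gene, olaparib minus DMSO on the log2 scale (horizontal axis), as a point with the 95% interval of the limma fit, coloured by call. Ccn1, Ccn2, Myl9 and Thbs1 lie between -0.91 and -0.71, Tagln at -0.23, Amotl2, Srf and Acta2 near 0, and F3 at 0.37.

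Of the 10 genes 9 were tested, of which 4 fell, 1 rose and 4 did not pass. Over all genes tested 3.37% were called lower and 2.84% higher. The arrays did not overlap for 5 genes in the lower direction and 1 in the higher, where 23.9% of all genes tested were separated downwards and 23.2% upwards. Because the genes were picked with this comparison known, these shares are set side by side as a description. The median change over the 9 was -0.23, beside 0.0013 over all genes tested. When the spread was estimated jointly over the 21704 probe sets brighter than the filter, 1 of the genes was lower, Thbs1 (adjusted p = 0.0471), and Ccn1, Ccn2 and Myl9 each had an adjusted p of 0.0523. Their changes are the same in that fit. The error assigned to them differs, and the adjustment ran over those 21704 rows instead of 13956.

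**Figure D3:**
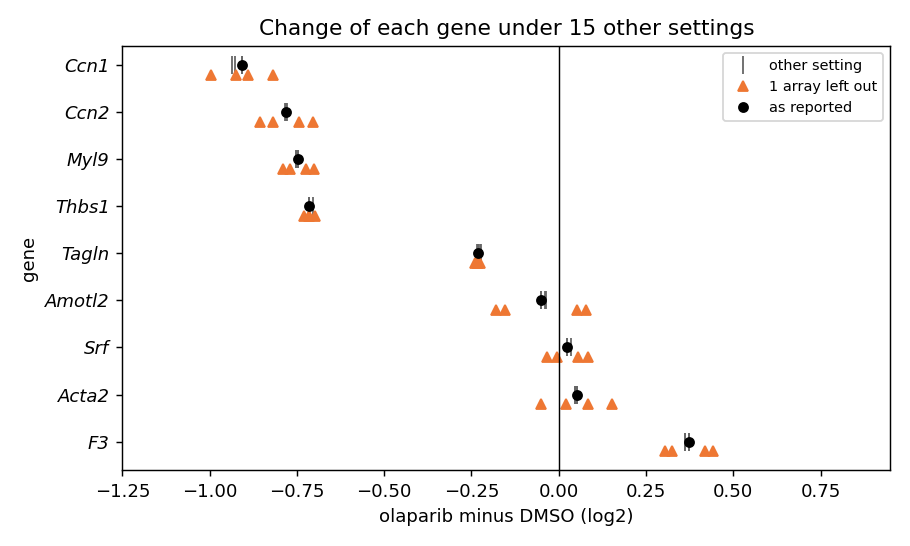
Change of each tested gene (horizontal axis, log2) as reported, under the alternatives that keep all arrays, and with each array left out in turn. Ccn1, Ccn2, Myl9 and Thbs1 stay at or below -0.70 in every setting and F3 between 0.30 and 0.44, while Amotl2, Srf and Acta2 change sign with 1 array left out.

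The genes for the coactivators and DNA-binding partners upstream of these targets gave no call. Yap1 read 7.92 and 7.89 with DMSO and 7.94 and 8.10 with olaparib, a change of 0.11 (SE 0.09, adjusted p = 0.590). Wwtr1, which encodes TAZ, changed by 0.092 (SE 0.10, adjusted p = 0.728). Tead1 read 9.03 and 9.18 with DMSO and 8.75 and 8.92 with olaparib, a change of -0.26 (adjusted p = 0.182). Tead4 changed by -0.22 (adjusted p = 0.105), Tead2 by -0.0088 and Tead3 by -0.017. The olaparib arrays lay below both DMSO arrays for Tead1 and Tead4 and above both for Yap1 and Wwtr1. Of all genes tested, 23.9% were separated downwards and 23.2% upwards. Tead1 passed in 3 of its 15 alternatives and Tead4 in 4 of 14, and the others in none. Transcript levels do not show where the YAP protein was in the cell.

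Of 22 Hippo kinases, adaptors and inhibitors tested, 2 fell (9.09%, beside 3.37% of all genes tested) and 0 rose. Their median change was -0.069. A change below 0 was read for 16 (72.7%, beside 49.5% of all genes tested). The olaparib arrays lay below both DMSO arrays for 8 and above both for 4, beside 23.9% and 23.2% of all genes tested. Vgll4, a TEAD cofactor that competes with YAP, fell by 0.46 (SE 0.12, adjusted p = 0.0219), from 10.05 and 10.02 to 9.47 and 9.68. Map4k4, a kinase that can activate LATS, fell by 0.41 (SE 0.12, adjusted p = 0.0400), from 9.79 and 9.79 to 9.25 and 9.50. Neither passed without either DMSO array, under median centring or with all probe sets in the fit, and Map4k4 also not without the filter. The median was -0.013 without olaparib replicate 1.

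Among 21 other YAP and TAZ targets tested, 2 rose (9.52%, beside 2.84% of all genes tested) and 0 fell. Their median was -0.070, and it was -0.0085 without olaparib replicate 1 and -0.041 without DMSO replicate 1. Myof, a membrane repair protein, rose by 0.44 (SE 0.08, adjusted p = 0.00169), from 7.12 and 7.12 to 7.51 and 7.61. All values of Myof lie within the range of the unrelated genes. Igfbp3, a binding protein of insulin-like growth factors, rose by 0.43 (SE 0.12, adjusted p = 0.0366), from 11.00 and 10.97 to 11.33 and 11.51. With all probe sets in the fit neither passed, and Igfbp3 was also lost without either DMSO array, without the filter and under median centring. The number that rose varied with 1 array left out, as it did over all genes. The 2 genes called among these targets thus went the opposite way to Ccn1 and Ccn2, as F3 did. Of the 21, though, 14 had a change below 0 (66.7%, beside 49.5% of all genes tested). The olaparib arrays lay below both DMSO arrays for 9 and above both for 5, beside 23.9% and 23.2% of all genes tested.

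The SRF cofactors likewise gave no call. Mrtfa changed by 0.12 (adjusted p = 0.417) and Mrtfb by 0.14 (adjusted p = 0.511), while the ternary complex factor genes Elk1, Elk3 and Elk4 changed by -0.17, -0.21 and -0.0048 (adjusted p at or above 0.239). Of 29 other cytoskeletal targets of MRTF and SRF tested, 2 rose (6.9%, beside 2.84% of all genes tested) and 0 fell. Their median of -0.0071 ran from -0.049 to 0.035 with 1 array left out. Tagln2, a non-muscle relative of Tagln, read 8.76 and 8.62 with DMSO and 8.95 and 9.35 with olaparib and rose by 0.46 (SE 0.12, adjusted p = 0.0293). Itga5, the fibronectin receptor subunit, whose values all lie within the range of the unrelated genes, rose by 0.28 (SE 0.08, adjusted p = 0.0310). Both calls were lost without either DMSO array, without the filter and with all probe sets in the fit. Tagln2 was also lost under median centring and without olaparib replicate 2, where its change was 0.26, and Itga5 without the trend in eBayes.

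Of the 12 targets of ternary complex factors, the growth factor branch of SRF, 1 rose (8.33%, beside 2.84% of all genes tested) and 0 fell. A change below 0 was read for 1 of the 12 (8.33%, beside 49.5% of all genes tested). The olaparib arrays lay above both DMSO arrays for 8, beside 23.2% of all genes tested. Among those, all values of Fos, Fosb, Ier2, Nr4a1 and Junb lie within the range of the unrelated genes, and those of Dusp1, Mcl1 and Egr1 above it. The number that rose was 2 under quantile normalization, cyclic loess or a filter at the 50th percentile, and it varied with 1 array left out. Over all genes, 476 rose with the 50th percentile filter, beside 397 in the main fit. The median of the 12 targets, 0.13, ran from 0.12 to 0.14 with 1 array left out, beside 0.0013 for all genes. Fos, the AP-1 subunit, read 6.99 and 7.01 with DMSO and 7.28 and 7.42 with olaparib, and rose by 0.34 (SE 0.08, adjusted p = 0.0116), a call lost without either DMSO array and with all probe sets in the fit. Egr1 changed by 0.21 (adjusted p = 0.341).

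**Figure D4:**
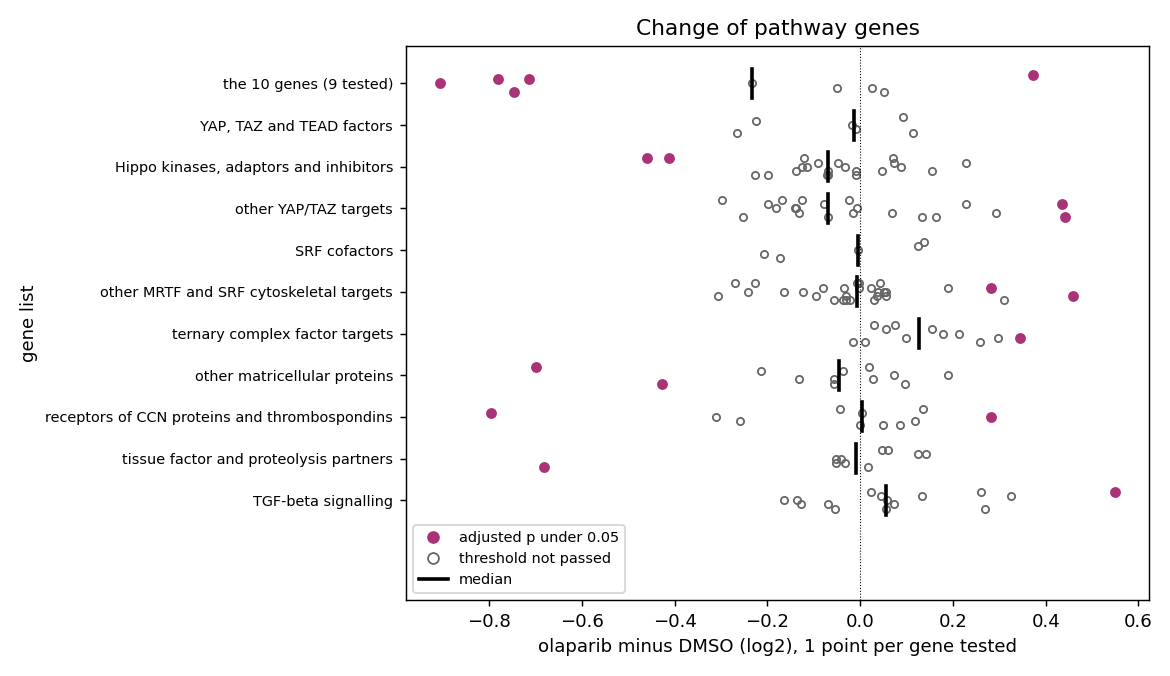
Change of each gene tested (horizontal axis, olaparib minus DMSO, log2) by gene list, with filled points at an adjusted p under 0.05 and a bar at the median of each list. The 4 falls among the 10 genes lie between -0.91 and -0.71, and the lowest points of the pathway lists are Itga6 at -0.80, Smoc1 at -0.70 and Plat at -0.68, while the medians of those lists run from -0.070 to 0.13.

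The relatives of the matricellular genes did not follow Ccn1, Ccn2 and Thbs1 into the calls. In the CCN family Ccn3, Ccn5 and Ccn6 changed by -0.057, -0.13 and 0.072 (adjusted p at or above 0.426), and Ccn4 was under the filter at 6.36 to 6.50. In the thrombospondin family Thbs2 changed by 0.19 (adjusted p = 0.185) and Thbs3 by -0.21 (adjusted p = 0.117), and Thbs4 and Comp were under the filter. All of these lie within the range of the unrelated genes. Of 12 other matricellular genes tested, those families included, 2 fell (16.7%, beside 3.37% of all genes tested) and 0 rose. Smoc1, a secreted calcium-binding modulator of BMP signals, fell by 0.70 (SE 0.10, adjusted p = 0.000137), from 8.65 and 8.57 to 7.83 and 7.99. Tnr, the neural tenascin R of perineuronal matrix, whose values all lie within the range of the unrelated genes, fell by 0.43 (SE 0.08, adjusted p = 0.00168). With all probe sets in the fit their adjusted p was 0.0639 and 0.0892.

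Among 11 receptors of CCN proteins and thrombospondins tested, 1 fell and 1 rose (9.09% each, beside 3.37% and 2.84% of all genes tested). Itga6, the laminin-binding integrin subunit through which CCN1 can also act, read 9.61 and 9.73 with DMSO and 8.74 and 9.01 with olaparib, and fell by 0.80 (SE 0.12, adjusted p = 0.000226; 0.0675 with all probe sets in the fit). The number that fell was 3 under quantile normalization or cyclic loess, where more of all genes fell too, and it varied with 1 array left out. The riser was Itga5, given above. Cd47, a thrombospondin receptor, changed by -0.26 (adjusted p = 0.217) and Itgb1, the common beta subunit, by -0.00032. Of 10 genes around tissue factor and pericellular proteolysis tested, 1 fell (10%, beside 3.37% of all genes tested) and 0 rose. Plat, the tissue plasminogen activator, fell by 0.68 (SE 0.12, adjusted p = 0.000989), from 10.06 and 9.91 to 9.21 and 9.39, a call lost without DMSO replicate 1 and with all probe sets in the fit. F2r, the thrombin receptor, changed by -0.032 (adjusted p = 0.933).

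Several of the 10 genes also mark smooth muscle, pericytes or fibroblasts, so markers of those cells were read on the same arrays. Of 12 mural cell markers, 0 lay above the brightest unrelated gene and 2, Mcam and Notch3, above the 75th percentile of those genes, 6.59. Pdgfrb, Rgs5 and Myh11 stood at means of 6.35, 6.48 and 6.52, near the median of the unrelated genes. The log2 of the mean linear level over the mural list was 6.59 and 6.54 with DMSO and 6.59 and 6.53 with olaparib. Of 10 fibroblast markers, 5 lay above the 75th percentile and 1, Ogn, above the brightest unrelated gene. Dcn and Lum stood at 6.25 and 6.06, and the list level was 6.89 and 6.90 with DMSO against 6.79 and 6.68 with olaparib. Ogn, a small proteoglycan, fell by 0.56 (SE 0.09, adjusted p = 0.000632), and the part of such cells in the falls of Ccn1, Ccn2, Thbs1 and Myl9 was not tested. Neural stem and progenitor markers were present on the array, with 9 of 11 above the brightest unrelated gene, among them Nes and Sox2. Pax6 was also among the 9, but viral Pax6 was not told apart from the cells' own. Of the 11 markers 1 fell, Gfap by 1.03 (9.09%, beside 3.37% of all genes tested). The median change over the 11, -0.052, ran from -0.18 to 0.039 with 1 array left out. A change below 0 was read for 7 of the 11 (63.6%, beside 49.5% of all genes tested). The arrays were separated downwards for 5 and upwards for 2, beside 23.9% and 23.2% of all genes tested. Neuroblast markers mostly read lower beside the falls among the 10 genes. Of 8 tested 1 fell, Dcx by 1.05 (12.5%, beside 3.37% of all genes tested). A change below 0, though, was read for 7 (87.5%, beside 49.5% of all genes tested). For 6 both olaparib arrays lay below both DMSO arrays, beside 23.9% of all genes tested. The median change of the neuroblast markers was -0.23, as it was over the 9 tested genes, and it ran from -0.25 to -0.22 with 1 array left out. The log2 of the mean linear level over 10 neuroblast markers was 8.80 and 8.91 with DMSO and 8.63 and 8.80 with olaparib. The part of neuroblasts and progenitors in the changes of the 10 genes was not tested.

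The genes nearest to Ccn1 over the 4 arrays, by Euclidean distance of values centred on each gene's mean and without the other 9 genes, were Mmd2, Cxcr4, 6330403K07Rik, Man1c1 and Robo2, at distances of 0.085 to 0.15 on the log2 scale. They fell by 0.92, 0.87, 0.83, 0.80 and 0.76. This likeness rests on 4 arrays in 2 groups and mostly restates the size of the fall.

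Promoter motifs were also set against the change of all genes, as a description. Of 11089 genes tested with a promoter window, 3.30% fell and 2.80% rose. Among 175 with a CArG box 1.71% fell and 1.71% rose, with a median change of -0.0039. Among 1595 with the TEAD motif 4.08% fell and 2.32% rose, with a median of -0.0025, and among 689 with the AP-1 motif 3.77% fell and 3.77% rose. The medians lay close to the 0.0018 of all genes with a window.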

How the data were processed

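From 40 ng of total RNA, biotin-labelled material was made with a whole-transcript amplification kit and read on Affymetrix arrays, 1 per sample, per the labels' protocols. The deposited table of the authors holds log2 values for 34760 probe sets on 4 arrays. Background correction, normalization and summarisation are not given in the sources used here, nor are batches.

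Probe sets naming 1 gene in the platform annotation (21640) were kept, 1321 named several and 11799 were unlisted. Symbols were updated by gene identifier through RefSeq (GRCm38.p6). Each gene took its probe set with the highest mean. The 13956 genes whose mean exceeded its 30th percentile (6.42) entered a two-sided limma test (version 3.58.1, R 4.3.3; lmFit, then eBayes with trend), with Benjamini-Hochberg adjustment and a threshold of 0.05. The fit and motif search were tested on simulated data. Alternatives changed the filter, normalization, floor, variance model, rows sharing the prior, array weights and probe sets, and left out each array; a replicate block was added after seeing the data.

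The 10 genes, the pathway and marker lists, the alternatives and the tests were chosen with earlier results of these data known. The genes named were all 10, their upstream factors and family members, up to 3 called genes per direction in each list, and the 5 nearest to Ccn1. List members without a probe set of their own were not analysed here, and 1 pathway list is not reported here. Figures used matplotlib 3.10.9 under Python 3.11.15.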

Additional observations from a re-analysis of the deposited data

How the results depend on the processing

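Over 135 recomputed changes of the 9 tested genes, 122 kept direction and side of the threshold, 8 lost the call and 5 changed sign, all with 1 array left out. The count of the 10 genes called lower was 4 in each alternative except with all probe sets in the fit, where it was 1, and the count called higher was 0 instead of 1 without the filter, under median centring and with all probe sets in the fit. Over all genes, 257 were higher without the filter, 779 were lower under quantile normalization and 732 under cyclic loess, and with all probe sets in the fit 1 was higher and 11 were lower, where the prior was worth 5.25 degrees of freedom instead of 18.1. With 1 array left out, the counts ran from 97 to 1274 higher and from 161 to 1032 lower, and from 0 to 1 for the 10 genes called higher. With a lone array in a group, nearly all of the spread came from other genes of similar level, through a prior worth 43.2 degrees of freedom or more. In those settings the change ran from -0.18 to 0.079 for Amotl2, -0.035 to 0.084 for Srf, -0.051 to 0.15 for Acta2, -0.041 to 0.023 for Tead2, -0.070 to 0.036 for Tead3 and -0.11 to 0.10 for Elk4, none of them called. Under cyclic loess Tead2 was at 0.00082. Of 135 recomputed counts of called genes in the pathway lists, 91 stayed within 1.5 times, 28 were lower and 16 higher. The titles number 1 array of each group as the first and tie no number to an animal or batch, so the numbers were not taken as a pairing; same-numbered arrays deviated together with r = 0.17 across genes. A replicate block, added after seeing the data, left 1 residual degree of freedom and a prior without limit, so its error came from other genes of similar level. It gave 761 genes higher and 854 lower, with 1 of the 10 genes higher and 5 lower, Tagln included (adjusted p = 0.0276; limma). Background correction could not be repeated from summarised values, and 2 arrays per group and members near background limit what can be seen.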

Other observations

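Genes of TGF-beta signalling, which thrombospondin 1 can activate, gave 1 rise among 15 tested (6.67%, beside 2.84% of all genes tested) and 0 falls. Their median was 0.056, and it was 0.0061 without olaparib replicate 1 and 0.019 without DMSO replicate 1. The number that rose was 3 under quantile normalization or cyclic loess, and 2 if eBayes had no trend or genes had to exceed the 50th percentile. It was 0 with all probe sets in the fit, and it varied with 1 array left out, as it did over all genes. The riser was Smad3, the receptor-activated transcription factor, which read 7.68 and 7.63 with DMSO and 8.06 and 8.36 with olaparib and rose by 0.55 (SE 0.10, adjusted p = 0.00175; limma gave 0.125 when all probe sets entered).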
